A study of Mus musculus with 12 samples.

Results

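The genes described here are the subunits of the voltage-gated ion channels: the sodium channels (Scn genes), the calcium channels (Cacna1, Cacna2d and Cacnb genes), the voltage-gated potassium channels of the Kcna, Kcnab, Kcnb, Kcnc, Kcnd, Kcnq and Kcnh genes, and the HCN channels. They were taken by gene symbol alone, and 69 of the 25238 genes in the count table carry such a symbol. RNA-seq was performed on micro-punches of cortex from 12 mice, 1 library per mouse. The 4 ISP mice (12, 14, 16 and 18) had a middle cerebral artery occlusion (MCAo) stroke and were given intracellular sigma peptide, a membrane-permeable peptide that binds the proteoglycan receptor PTPσ, at 1 μg/g/day, with harvest at day 14. The 4 Veh mice (2, 6, 8 and 10) had the same stroke and received 5% DMSO in saline, although the results text of the study speaks of a scrambled peptide. The 4 control mice (19, 21, 36 and 38) are labelled only as control, with the same peri-infarct tissue label, and since no surgery, treatment or day particular to them is given, they are compared here under that label alone. The ISP and Veh mice together are called the stroke mice. The surgery used young adult mice, male C57BL/6J or a Nestin-creER-Ai9 reporter line. Of the reporter line the study used both sexes. Which line and sex gave the RNA is not stated.

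Voltage-gated channels open when the membrane potential changes, and together they set how a neuron fires. Sodium channels carry the rising phase of the action potential, potassium channels bring the membrane back to rest and set the spacing of spikes, calcium channels couple a spike to transmitter release and to signals inside the cell, and HCN channels pass a depolarizing current at rest that regulates how inputs sum in dendrites. The pore is formed by alpha subunits, while beta and alpha2delta subunits govern how many channels reach the membrane and how fast they open and close. In cortex these genes are transcribed mostly by neurons, with excitatory cells and fast-spiking interneurons using different members.

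Total counts per library were 19325979 to 28685864 in ISP mice, 17442711 to 24706638 in Veh mice and 21322702 to 29845629 in control mice. Levels are given as CPM, counts scaled to library size with TMM factors, and as CPM per kilobase of exon where genes are set side by side. A gene is called when its adjusted p is under 0.1 in the edgeR comparison of the 8 libraries concerned. The excitatory cortical genes Slc17a7 and Camk2a averaged 2058 and 2862 CPM in ISP mice, 2351 and 3558 CPM in Veh mice, and 2292 and 3202 CPM in control mice. Some libraries stood apart, since ISP 18 and Veh 6 held choroid plexus genes (a summed 1140 CPM in ISP 18 and 1672 CPM in Veh 6), and ISP 14 and ISP 18 had the highest microglia genes. Veh 10 held more fibroblast and meninges genes (a summed 145 CPM, against 12.0 to 38.1 CPM in the other 11 libraries) and mural cell genes (222 CPM, against 146 to 168 CPM).

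First, the level of subunits per kilobase of exon was determined. Among the subunits described here, Kcnab2, a cytoplasmic auxiliary partner of Kv1 channels, was the highest at 128 ± 9.94 CPM per kilobase in ISP mice, 134 ± 14.4 in Veh mice and 129 ± 6.21 in control mice (SD, n = 4 each). The sodium channel beta subunit Scn2b, at 98.4 ± 11.1, 96.3 ± 3.99 and 97.3 ± 2.26 CPM per kilobase in ISP, Veh and control mice, and the pore subunit Hcn2, at 96.9 ± 19.9, 98.3 ± 8.88 and 93.3 ± 10.0, came next and did not differ beyond their spread. The next pore-forming subunit was Kcna1, a Kv1 channel of axons, at 68.8 ± 6.45 CPM per kilobase in ISP mice, 54.4 ± 7.31 in Veh mice and 67.5 ± 11.0 in control mice. Scn8a, the sodium channel of the axon initial segment and nodes, was the highest sodium alpha subunit at 25.1 ± 1.54 CPM per kilobase in ISP mice, 25.1 ± 0.786 in Veh mice and 30.1 ± 1.51 in control mice. Among calcium channel subunits the beta subunit Cacnb3 led, with 70.8 ± 6.29 CPM per kilobase in ISP mice, 88.4 ± 12.9 in Veh mice and 81.0 ± 10.6 in control mice.

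Not every member could be tested. Kcna7, Kcna10, Kcnh8, Scn4a and Scn11a had too few counts in all 3 comparisons, with at most 22 counts in any library. Scn4a is the sodium channel of skeletal muscle and Scn11a one of sensory neurons. Cacna1s, the skeletal muscle calcium channel, Kcnq1, known from heart and epithelia, and Scn10a, of sensory neurons, passed the filter in only some comparisons. This left 63 members for ISP with Veh, 61 for Veh with control and 63 for ISP with control.

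**Figure D1:**
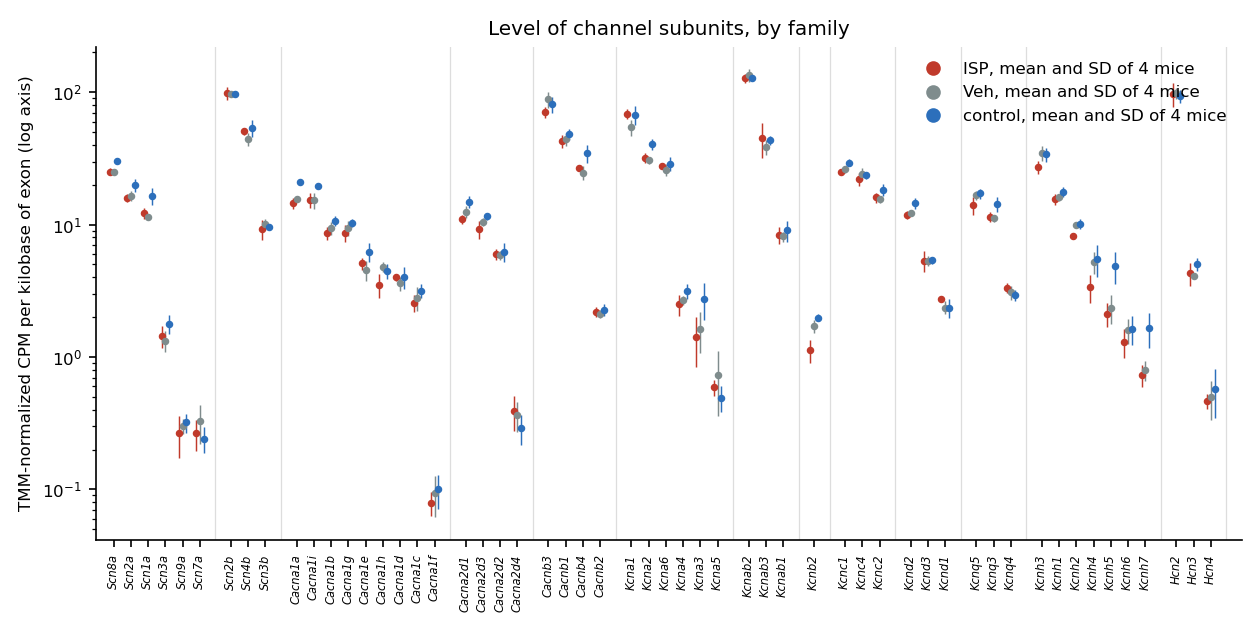
Level of subunits that were tested in all 3 comparisons, grouped by family (horizontal axis) and given as TMM-normalized CPM per kilobase of exon on a log axis (vertical). Points are means and bars are SDs of 4 ISP (red), 4 Veh (grey) and 4 control mice (blue), and the levels run from Kcnab2 at 128 to 134 CPM per kilobase down to about 0.1 for Cacna1f, the calcium channel of the retina.

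Next, each stroke group was set against control. In Veh mice 10 of the 61 tested members fell and 0 rose, 16.4% of them, where 1.2% of all 15126 tested genes fell and 1.03% rose (2.23% in either direction). In ISP mice 18 of the 63 tested members fell and 0 rose, 28.6% of them, where 3.42% of all 15232 tested genes fell and 6.74% rose (10.2% in either direction). The median log2 fold change of tested members was -0.15 for Veh minus control, against 0.02 over all tested genes, and -0.26 for ISP minus control, against -0.01. The value was below 0 for 48 members in Veh mice (45.7% of all genes) and for 53 in ISP mice (51.4% of all genes). At an unadjusted p under 0.05, 0 members were higher and 22 lower in Veh mice, against 8.1% and 8.24% of all genes, and 0 were higher and 30 lower in ISP mice, against 12.3% and 10% of all genes. DESeq2 called 0 members higher and 15 lower in Veh mice (3.31% and 4.34% of all genes), and 0 higher and 24 lower in ISP mice (9% and 5.73%). With limma-voom the counts were 0 higher and 7 lower in Veh mice (0.926% and 1.34% of all genes), and 0 higher and 18 lower in ISP mice (6.47% and 4.1%). Both comparisons use the same 4 control mice, so their counts are not independent of each other. In whole tissue, fewer neurons and less channel RNA per neuron cannot be told apart.

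Summed over all 69 members, the libraries held 8521, 8006, 9318 and 8416 CPM in ISP mice, 8726, 8565, 9058 and 8497 CPM in Veh mice, and 9781, 10200, 9713 and 9555 CPM in control mice. Every stroke library was below every control library, whereas the ISP and Veh libraries overlapped. Groups did not overlap, with the stroke group lower, for 16 tested members in Veh mice (5.39% of all tested genes) and for 16 in ISP mice (4.75% of all tested genes). They did so with the stroke group higher for 0 members in Veh mice (4.28% of all tested genes) and 0 in ISP mice (7.14%).

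**Figure D2:**
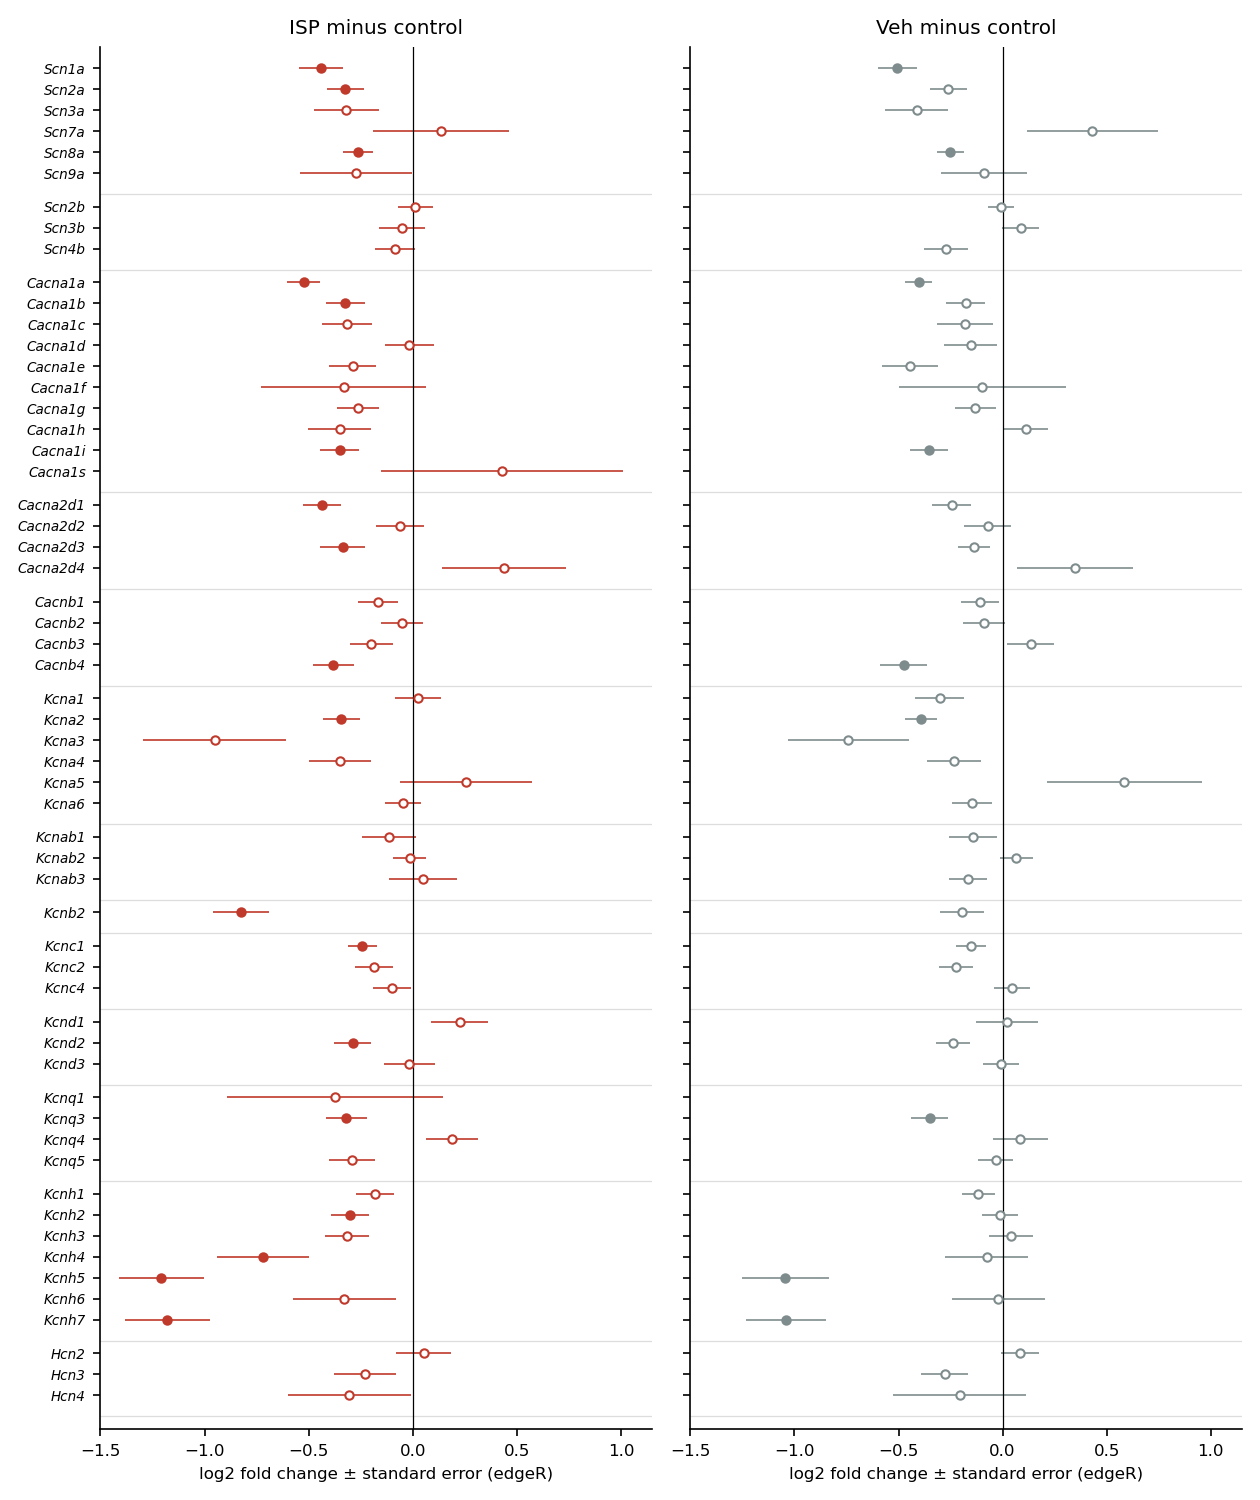
Log2 fold change with standard error from edgeR (horizontal axis) for tested subunits (rows, grouped by family) for ISP minus control (left, red) and Veh minus control (right, grey), with 4 mice in each group. Filled points have an adjusted p under 0.1 (18 are drawn for ISP mice and 9 for Veh mice) and all of them lie left of 0.

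Among the sodium channel alpha subunits, Scn1a, known as the main channel of fast-spiking interneurons, fell in both stroke groups. Scn1a was at 124, 127, 153 and 138 CPM in ISP mice, 124, 134, 126 and 130.0 CPM in Veh mice and 174, 222, 179.5 and 159 CPM in control mice, and no ISP or Veh mouse reached the lowest control mouse. The log2 fold change was -0.44 (standard error 0.11, adjusted p = 0.0403) for ISP minus control and -0.51 (standard error 0.09, adjusted p = 0.0534) for Veh minus control. Scn8a followed with a smaller change. It was at 401, 378, 429 and 377 CPM in ISP mice, 380.3, 394, 408 and 403 CPM in Veh mice and 457, 504, 484 and 454 CPM in control mice, again with all stroke mice below all control mice, at log2 fold changes of -0.26 (standard error 0.07, adjusted p = 0.0555) in ISP mice and -0.25 (standard error 0.06, adjusted p = 0.0949) in Veh mice. Scn2a, the channel of excitatory axons, was at 211, 207, 215 and 182 CPM in ISP mice, 187, 217, 212 and 226 CPM in Veh mice and 229, 294, 249 and 245 CPM in control mice. It fell in ISP mice, at -0.32 (standard error 0.09, adjusted p = 0.0575), and in Veh mice it gave -0.26 (standard error 0.09, adjusted p = 0.171), which missed the threshold although the groups did not overlap. Scn3a, better known from the developing brain, was at log2 fold changes of -0.32 and -0.41 for ISP and Veh minus control, and neither passed (adjusted p = 0.252 and 0.197). Scn7a and Scn9a stayed under 6 CPM in every library and were not called.

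The sodium channel beta subunits gave no call. Scn2b was flat, at 0.01 and -0.01 for ISP and Veh minus control (standard errors 0.08 and 0.06). Thus 3 of 7 tested alpha subunits were called lower in ISP mice and 2 of 7 in Veh mice, and 0 of 4 beta subunits in each. Over all tested genes, 3.42% were called lower in ISP mice and 1.2% in Veh mice. A difference between the families was not tested.

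Of the calcium channel pore subunits, Cacna1a, the P/Q-type channel of presynaptic terminals, had the smallest p-value of all members in both comparisons. Cacna1a, on chromosome 8 from 84388440 to 84640246 (GRCm38, plus strand), was at 157, 153, 188 and 168 CPM in ISP mice, 169, 188, 179 and 182 CPM in Veh mice and 242, 249, 229.5 and 235 CPM in control mice. All 8 stroke mice were below the 4 control mice by a clear gap, with log2 fold changes of -0.52 (standard error 0.08, adjusted p = 0.0186) in ISP mice and -0.40 (standard error 0.07, adjusted p = 0.0395) in Veh mice. Cacna1i, a low-threshold T-type channel that supports burst firing, was at 143, 130.2, 178 and 156 CPM in ISP mice, 128, 147, 176 and 150.5 CPM in Veh mice and 203, 198, 182 and 190.5 CPM in control mice. The highest stroke mice came close to the lowest control mouse, and the log2 fold changes were -0.35 (standard error 0.10, adjusted p = 0.0563) in ISP mice and -0.35 (standard error 0.09, adjusted p = 0.098) in Veh mice. Cacna1b, the N-type channel of presynaptic terminals, fell in ISP mice at -0.32 (standard error 0.09, adjusted p = 0.071) and gave -0.18 (standard error 0.09, adjusted p = 0.363) in Veh mice. The R-type channel Cacna1e was lower in every Veh mouse than in every control mouse, yet missed the threshold at -0.44 (standard error 0.13, adjusted p = 0.138). The L-type channels Cacna1c and Cacna1d were at -0.32 and -0.02 in ISP mice and at -0.18 and -0.15 in Veh mice, with no call. In all, 3 of 10 tested pore subunits fell in ISP mice (3.42% of all tested genes) and 2 of 9 in Veh mice (1.2%).

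Of the auxiliary calcium channel subunits, 2 of 4 alpha2delta genes fell in ISP mice and 0 of 4 in Veh mice. Of the beta genes 1 of 4 fell in each. Over all tested genes, 3.42% fell in ISP mice and 1.2% in Veh mice. Cacna2d1, an alpha2delta subunit and the binding site of gabapentin, was at 135, 133, 152 and 127 CPM in ISP mice, 156, 135, 154 and 175 CPM in Veh mice and 188, 201, 158 and 192 CPM in control mice. Every ISP mouse was below every control mouse while Veh and control mice overlapped, with log2 fold changes of -0.43 (standard error 0.09, adjusted p = 0.0275) in ISP mice and -0.24 (standard error 0.09, adjusted p = 0.215) in Veh mice. Cacna2d3, of the same family, fell in ISP mice at -0.34 (standard error 0.11, adjusted p = 0.0914), with 1 ISP mouse inside the control range. The beta subunit Cacnb4, a partner of Cacna1a, was at 245, 233, 251 and 225 CPM in ISP mice, 186, 254, 223 and 224 CPM in Veh mice and 286, 373, 319 and 264 CPM in control mice. It fell in both stroke groups without overlap, at -0.38 (standard error 0.10, adjusted p = 0.0487) in ISP mice and -0.47 (standard error 0.11, adjusted p = 0.0849) in Veh mice. Of its exon bases 16% are shared with A430018G15Rik on the other strand. The libraries carry no strand marking, so a read in those bases does not show its gene of origin. How such reads entered the Cacnb4 counts was not examined. Cacnb3, the most abundant beta subunit, was at 274, 279, 320.1 and 262 CPM in ISP mice, 415, 288, 352 and 363 CPM in Veh mice and 371, 288, 289 and 351 CPM in control mice and was not called.

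The largest changes among called members were in the EAG, ERG and ELK family, the Kcnh genes, potassium channels that regulate excitability. Of these, 4 of 7 tested fell in ISP mice (3.42% of all tested genes) and 2 of 7 in Veh mice (1.2%). Kcnh5, an EAG channel known in the rat from the granular layer of cortex, was at 7.21, 8.34, 11.3 and 7.70 CPM in ISP mice, 6.65, 8.91, 10.7 and 11.9 CPM in Veh mice and 17.0, 27.2, 14.6 and 20.8 CPM in control mice. Stroke mice did not reach the lowest control mouse, and the level was about halved, with log2 fold changes of -1.21 (standard error 0.20, adjusted p = 0.0199) in ISP mice and -1.04 (standard error 0.21, adjusted p = 0.0678) in Veh mice. Kcnh7, an ERG channel of neurons, was at 8.86, 9.95, 13.5 and 12.1 CPM in ISP mice, 10.1, 13.7, 10.6 and 14.0 CPM in Veh mice and 23.9, 34.7, 16.7 and 25.3 CPM in control mice, with the same separation and log2 fold changes of -1.18 (standard error 0.20, adjusted p = 0.0205) in ISP mice and -1.04 (standard error 0.19, adjusted p = 0.0534) in Veh mice. In both genes control 21 was the highest and control 36 the lowest control mouse. Without control 21 the Kcnh5 change was -1.03 in ISP mice and -0.87 in Veh mice, and that of Kcnh7 was -0.99 and -0.86. Kcnh2, the ERG channel of cardiac repolarization, and Kcnh4, an ELK channel, fell in ISP mice at -0.30 (standard error 0.09, adjusted p = 0.0784) and -0.72 (standard error 0.22, adjusted p = 0.0823). In Veh mice they were not called, at -0.01 and -0.08. Kcnh3, the ELK channel of forebrain, was lower in every ISP mouse than in every control mouse and just missed the threshold at -0.32 (standard error 0.10, adjusted p = 0.102).

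The promoters of 4 of the 9 subunits called lower in both stroke groups are shown. Their falls ranged from about 0.4 on the log2 scale for Kcna2 and Scn1a to above 1 for Kcnh5 and Kcnh7. A relation of promoter sequence to these changes was not tested. Each window runs from 250 bases before to 50 bases after the RefSeq start (GRCm38.p6), read 5′ to 3′ on the gene's strand, with GC boxes (GGGCGG or its reverse complement CCGCCC, known as binding sites of the Sp family) in capitals. Kcnh5 lies at chr12:75177283-75177582 (minus strand), Kcnh7 at chr2:63184238-63184537 (minus strand), Kcna2 at chr3:107101317-107101616 (plus strand) and Scn1a at chr2:66440788-66441087 (minus strand).
Kcnh5: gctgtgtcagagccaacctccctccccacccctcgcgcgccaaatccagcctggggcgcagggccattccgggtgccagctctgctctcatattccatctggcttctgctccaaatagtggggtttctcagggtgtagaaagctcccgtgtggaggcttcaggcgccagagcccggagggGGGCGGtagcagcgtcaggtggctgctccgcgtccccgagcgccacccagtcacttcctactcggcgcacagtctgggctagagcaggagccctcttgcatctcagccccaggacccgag
Kcnh7: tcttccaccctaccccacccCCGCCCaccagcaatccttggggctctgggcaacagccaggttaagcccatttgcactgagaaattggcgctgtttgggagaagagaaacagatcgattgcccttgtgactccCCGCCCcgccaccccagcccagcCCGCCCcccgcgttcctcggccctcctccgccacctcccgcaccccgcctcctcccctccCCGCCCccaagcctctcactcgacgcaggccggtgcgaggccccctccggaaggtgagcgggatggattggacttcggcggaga
Kcna2: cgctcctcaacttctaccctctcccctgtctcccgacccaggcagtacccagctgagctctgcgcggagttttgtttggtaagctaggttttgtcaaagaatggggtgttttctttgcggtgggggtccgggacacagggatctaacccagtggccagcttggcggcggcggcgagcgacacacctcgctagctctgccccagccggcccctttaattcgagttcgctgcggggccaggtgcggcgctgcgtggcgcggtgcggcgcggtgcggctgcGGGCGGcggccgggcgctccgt
Scn1a: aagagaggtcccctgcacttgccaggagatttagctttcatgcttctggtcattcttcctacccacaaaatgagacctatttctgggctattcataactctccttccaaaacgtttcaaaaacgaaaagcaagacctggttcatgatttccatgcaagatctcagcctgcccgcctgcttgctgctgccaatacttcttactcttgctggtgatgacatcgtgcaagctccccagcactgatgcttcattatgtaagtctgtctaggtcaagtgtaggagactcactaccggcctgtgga
Kcnh7 held 4 GC boxes, Kcnh5 and Kcna2 1 each, and Scn1a 0. The GC content was 65.3%, 67.7%, 66.7% and 47.3% in the order shown, and the number of CpG pairs was 17, 21, 31 and 5. A GC box on either strand was present in 32 of the 66 windows found for 48 of the members (48.5%), in 11 of the 19 windows of the called members (57.9%) and in 11714 of all 32851 RefSeq windows (35.7%). The letters TATAAA, on either strand, were in 3 of the 66 windows (4.55%) and in 13.6% of all windows. The members' windows had a median GC content of 62.7%, against 52.7% for all windows.

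Among the other potassium channels, the calls fell on pore subunits of Kv1 to Kv4 and Kv7. Kcna2, a Kv1 channel of axons beside the nodes, was at 369.7, 367, 430.1 and 354 CPM in ISP mice, 339, 372, 386 and 361 CPM in Veh mice and 461, 542, 494 and 429.5 CPM in control mice. All Veh mice were below the control mice and 1 ISP mouse reached the lowest of them, with log2 fold changes of -0.34 (standard error 0.09, adjusted p = 0.0494) in ISP mice and -0.39 (standard error 0.08, adjusted p = 0.0701) in Veh mice. Kcna1, which assembles with Kcna2, behaved otherwise, at 0.03 (standard error 0.11, adjusted p = 0.921) in ISP mice and -0.30 (standard error 0.12, adjusted p = 0.219) in Veh mice. Kcnb2, a Kv2 delayed rectifier, was at 16.3, 16.9, 21.4 and 13.4 CPM in ISP mice, 26.0, 22.1, 26.8 and 29.3 CPM in Veh mice and 30.7, 29.1, 27.9 and 32.1 CPM in control mice. It fell in ISP mice, which lay below all control mice, at -0.82 (standard error 0.13, adjusted p = 0.0186), the largest change outside the Kcnh genes among called members, and gave -0.20 (standard error 0.10, adjusted p = 0.378) in Veh mice. Kcnc1, the Kv3 channel of fast-spiking cells, and Kcnd2, the A-type channel of dendrites, fell in ISP mice at -0.24 (standard error 0.07, adjusted p = 0.0697) and -0.29 (standard error 0.09, adjusted p = 0.0901), with -0.15 and -0.24 in Veh mice. Kcnd2 was at 62.2, 64.1, 64.3 and 54.9 CPM in ISP mice, 62.9, 64.6, 61.8 and 62.9 CPM in Veh mice and 67.1, 79.1, 70.4 and 82.9 CPM in control mice, and here all stroke mice were below all control mice. The 3 Kvbeta genes, with Kcnab2 at 725, 642, 777 and 712 CPM in ISP mice, 849.5, 693, 782 and 677 CPM in Veh mice and 755, 674, 716 and 736 CPM in control mice, gave no call and had log2 fold changes from -0.11 to 0.05 in ISP mice and from -0.17 to 0.07 in Veh mice.

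Of the Kv7 genes, whose channels carry the M-current that limits repetitive firing, Kcnq3 was at 154, 174, 188 and 160.4 CPM in ISP mice, 149, 170.1, 170.1 and 166 CPM in Veh mice and 203, 252, 195 and 192 CPM in control mice. It fell in both stroke groups without overlap, at -0.32 (standard error 0.10, adjusted p = 0.0856) in ISP mice and -0.35 (standard error 0.09, adjusted p = 0.0954) in Veh mice. Of the HCN genes, Hcn2 was at 297, 264, 275 and 403 CPM in ISP mice, 343, 319.8, 318 and 275 CPM in Veh mice and 324, 253, 297 and 318 CPM in control mice, with overlapping groups and log2 fold changes of 0.05 in ISP mice and 0.08 in Veh mice.

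**Figure D3:**
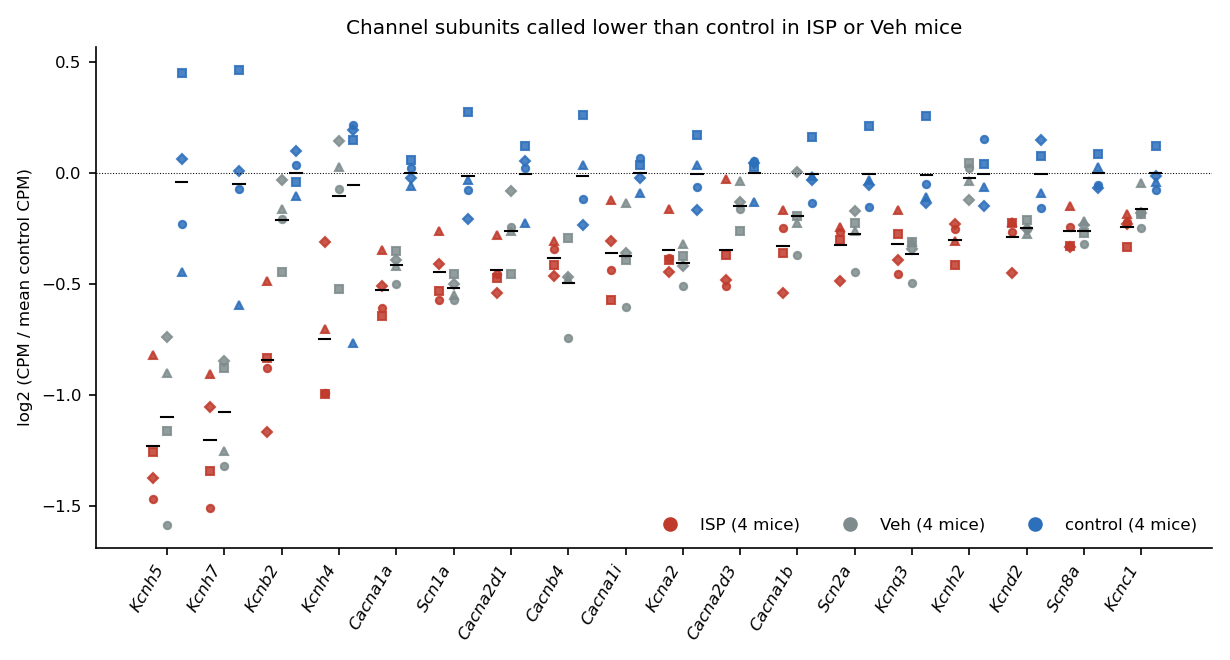
Log2 ratio of CPM to the mean CPM of the control mice (vertical axis) for 18 subunits called lower in at least 1 stroke group (horizontal axis, ordered by the ISP change), with 1 point per mouse for 4 ISP (red), 4 Veh (grey) and 4 control mice (blue) and a bar at each group's mean. Kcnh5 and Kcnh7 lie furthest below 0 in both stroke groups, while for Kcnb2 and Kcnh4 the ISP mice lie lowest, and control 36 is low for Kcnh4.

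The counts of called members changed when single libraries were left out, and so did the share of all tested genes called lower. In Veh mice edgeR called 0 members without Veh 2 or without control 21 (22 and 18 were lower at an unadjusted p under 0.05), and 0% of all genes in both fits. It called 1 without control 36 (0.0196% of all genes), 4 without Veh 10 (0.418%), and 6 without Veh 6 (1.4%), Veh 8 (0.312%) or control 38 (0.416%). In ISP mice 5 members were called without ISP 14 (0.786% of all genes), 7 without ISP 18 (0.951%), 2 without both (0.123%), 8 without control 36 (1.5%), 9 without control 38 (0.955%) and 27 without ISP 16 (5.29%). Over the 8 fits that each left out 1 library, Kcnh7 was called in 6 in Veh mice, Cacna1a and Scn1a in 5, Kcnh5 and Kcna2 in 4, Cacnb4 in 3, and Scn8a, Kcnq3 and Cacna1i in 1. In ISP mice Cacna1a, Kcnb2, Kcnh5, Kcnh7 and Cacna2d1 were called in 8, Scn1a in 7, Cacnb4 and Kcna2 in 5, Scn8a in 4 and Cacna1i in 3. The members have long, GC-rich transcripts (median exon length 7689 bases, against 4372 bases over all genes tested for ISP with control), and with trends in GC content and length removed 8 members were called lower in ISP mice (2.4% of all genes) and 2 in Veh mice (0.0727%). Of other genes of like length, 3.65% were called lower in ISP mice and 1.67% in Veh mice.

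To relate the channels to the cells in the punches, marker lists were set beside them. All 14 pan-neuronal genes had a negative log2 fold change for ISP minus control, with a median of -0.14 (51.4% of all tested genes were negative). For Veh minus control 8 of 14 were negative, with a median of -0.05 (45.7% of all tested genes). By edgeR 0 were called in either comparison. At an unadjusted p under 0.05, 5 were lower in ISP mice and 4 in Veh mice, against 10% and 8.24% of all tested genes. Their summed level was 11530 to 14220 CPM in ISP mice, 12860 to 14930 CPM in Veh mice and 14050 to 14950 CPM in control mice. With the pan-neuronal mean as a covariate, edgeR called 0 members lower in ISP mice (17 at an unadjusted p under 0.05; median log2 fold change -0.16), as it called 0% of all genes lower in that fit, and 12 in Veh mice, with 3.1% of all genes. Over all tested genes, edgeR called 6.74% higher in ISP mice and 1.03% higher in Veh mice. The microglia and macrophage list rose, with 11 of 12 genes called in ISP mice and 3 of 12 in Veh mice. Its summed level was 447 to 1693 CPM in ISP mice, 380.2 to 725 CPM in Veh mice and 279 to 377 CPM in control mice. Of the astrocyte list 5 of 8 genes rose in ISP mice and 1 of 8 in Veh mice (4579 to 6917 CPM in ISP mice, 4110 to 5678 CPM in Veh mice and 3612 to 4128 CPM in control mice), and of the oligodendrocyte list 7 of 9 rose in ISP mice and 0 of 9 in Veh mice (4866 to 11690, 2904 to 7223 and 3390 to 5106 CPM in ISP, Veh and control mice). None of the genes of these 4 lists was at 0 in a library. The part of these glial lists in the channel result was not tested.

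**Figure D4:**
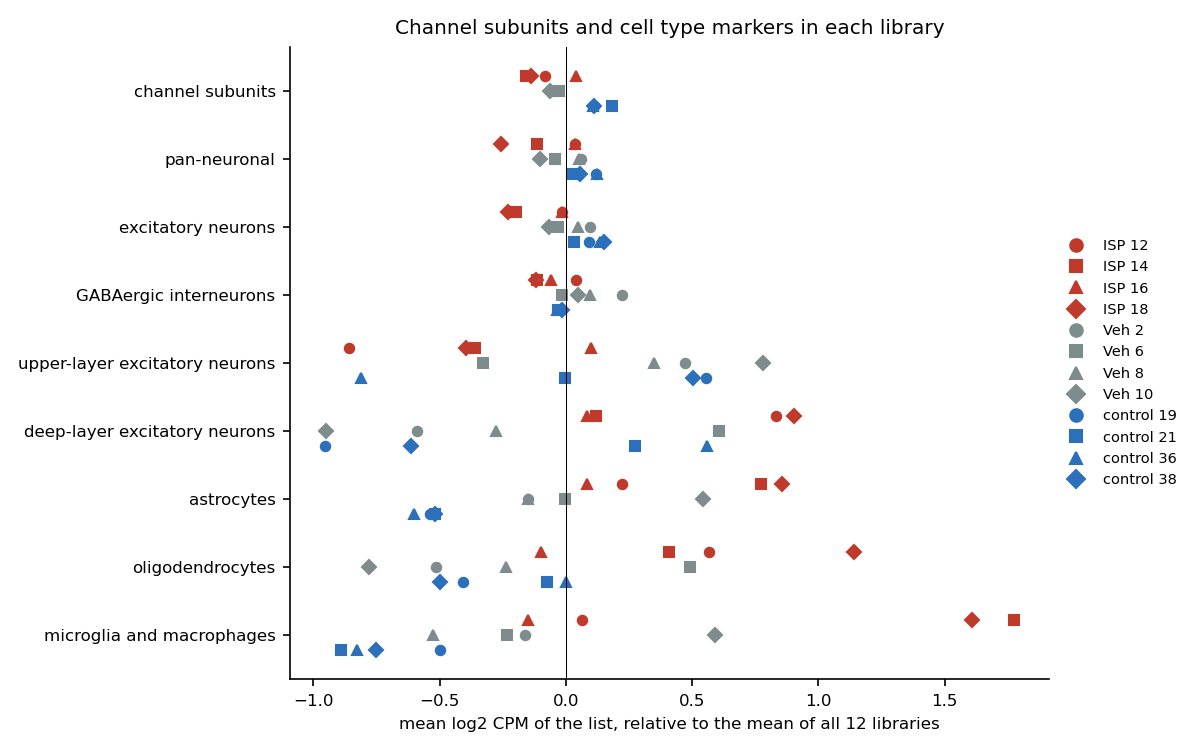
Mean log2 CPM of the channel subunits and of 8 marker lists (rows) for every library, as the difference from the average of the 12 libraries (horizontal axis), with 4 ISP (red), 4 Veh (grey) and 4 control mice (blue). The channel subunits of all control libraries lie at 0.11 or above and those of all stroke libraries at 0.04 or below, the microglia list is highest in ISP 14 and ISP 18, and the layer lists spread widely within every group.

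The comparison of ISP with Veh addressed whether the peptide changed channel transcripts after stroke. edgeR called 0 of 63 tested members in either direction, as it called 0% of all 15214 genes. At an unadjusted p under 0.05, 2 members were higher (7.87% of all genes) and 8 lower (7.47% of all genes). DESeq2 called 1 member higher (1.26% of all genes), Kcna1, and 4 lower (1.51% of all genes), Kcnb2, Kcnh2, Kcnh3 and Kcnh4, and limma-voom called 0. The median log2 fold change of members was -0.05, against 0.02 over all tested genes, and 35 members were below 0, where 47% of all genes were.

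Kcnb2 had the smallest p-value. It was at 16.3, 16.9, 21.4 and 13.4 CPM in ISP mice and 26.0, 22.1, 26.8 and 29.3 CPM in Veh mice, with no overlap and the ISP mice lower, at a log2 value of -0.62 (standard error 0.15, adjusted p = 0.261). Kcnh2 was at 41.2, 36.9, 39.7 and 42.0 CPM in ISP mice and 49.9, 50.7, 47.9 and 45.1 CPM in Veh mice, also without overlap, at -0.28 (standard error 0.08, adjusted p = 0.261). Kcnh4 was at 11.0, 11.0, 13.5 and 17.6 CPM in ISP mice and 20.8, 15.3, 22.3 and 24.1 CPM in Veh mice, at -0.63 (standard error 0.18, adjusted p = 0.261). Here ISP 18 was above Veh 6 and the groups overlapped. Kcnh3 was at 172, 134, 169 and 154 CPM in ISP mice and 221, 164, 215 and 199 CPM in Veh mice, with Veh 6 inside the ISP range, at -0.34 (standard error 0.11, adjusted p = 0.266). All 7 tested Kcnh genes had a negative value, with a median of -0.28 and a range from -0.63 to -0.05, and 47% of all tested genes were negative. Cacna1h, a T-type calcium channel, was at 39.0, 36.2, 38.1 and 23.6 CPM in ISP mice and 49.9, 41.2, 48.0 and 47.9 CPM in Veh mice without overlap, at -0.45 (standard error 0.14, adjusted p = 0.266), and its lowest value was that of ISP 18. Kcna1 went the other way. It was at 326, 302, 315 and 373 CPM in ISP mice and 225, 304, 269 and 241 CPM in Veh mice, with 1 Veh mouse inside the ISP range, at 0.34 (standard error 0.10, adjusted p = 0.263).

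Groups did not overlap, with ISP lower, for 4 members (4.01% of all tested genes), among them Kcnb2, Kcnh2 and Cacna1h, and with ISP higher for 0 members (2.8%). The upper-layer list had a median log2 fold change of -0.66 for ISP minus Veh (5 of 8 genes lower at an unadjusted p under 0.05, 0 called) and the deep-layer list 0.67 (4 of 8 higher, 0 called). At that unadjusted p, 7.47% of all tested genes were lower and 7.87% higher. The upper-layer genes summed to 420 to 649 CPM in ISP mice, 458 to 913 CPM in Veh mice and 427 to 898 CPM in control mice, and the deep-layer genes to 295.5 to 424.5, 165 to 384 and 203 to 388 CPM in ISP, Veh and control mice. Control 36, low for Kcnh4, Kcnh5 and Kcnh7 among the controls, had the lowest upper-layer sum of the control mice. Control 21, the highest control mouse for Kcnh5 and Kcnh7, went the other way. Its upper-layer sum of 624 CPM was below those of control 19 (898 CPM) and control 38 (812.5 CPM). A relation of these genes to layer content was not tested. With the upper-layer mean as a covariate, chosen after the values were seen, the log2 fold change for ISP minus Veh was -0.35 for Kcnb2, -0.29 for Kcnh4, -0.35 for Kcnh2 and 0.18 for Kcna1. Over all 22 alternative settings of ISP with Veh, this covariate among them, Kcnh3 ran from -0.43 to -0.22 and Cacna1h from -0.52 to -0.27. With the same covariate 6 members were called lower in ISP mice than in control mice (0.696% of all genes) and 7 in Veh mice than in control mice (0.807%).

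**Figure D5:**
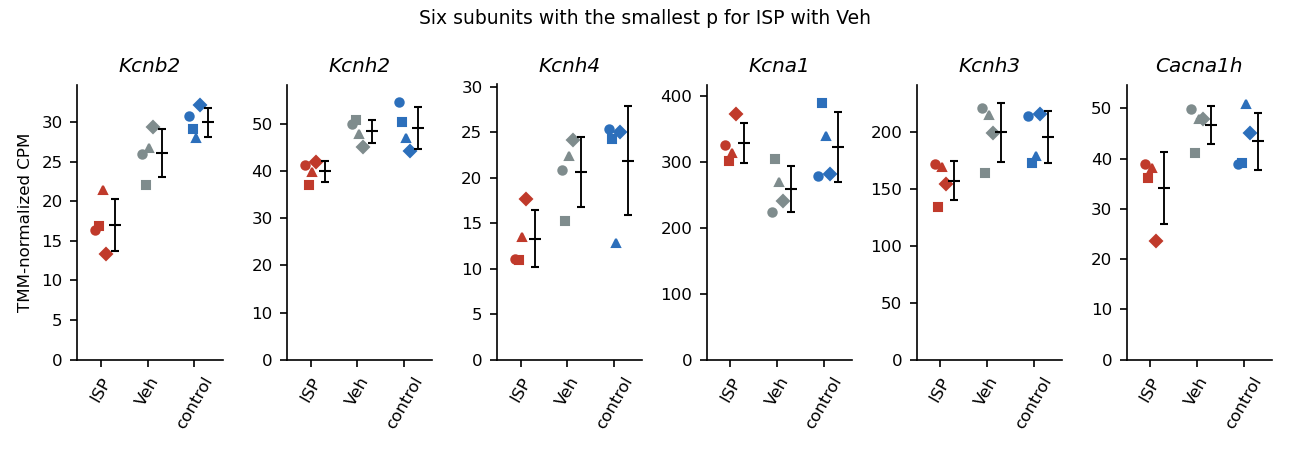
TMM-normalized CPM (vertical axis, from 0) of the 6 subunits with the smallest p for ISP with Veh, with 1 point per mouse for ISP (red), Veh (grey) and control (blue) and the mean with SD of 4 mice beside the points. ISP and Veh points do not overlap for Kcnb2, Kcnh2 and Cacna1h, and the Veh points of Kcnh2 and Kcnh3 lie at the level of the control points.

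Finally, genes that work with these channels were counted. Over all tested genes, edgeR called 6.74% higher and 3.42% lower in ISP mice than in control mice. In Veh mice these shares were 1.03% and 1.2%. Of 9 partners of sodium channels, among them the axon initial segment scaffolds Ank3 and Sptbn4, edgeR called 0 of 9 in any comparison. At an unadjusted p under 0.05, 3 were lower than control in ISP mice (10% of all genes) and 3 in Veh mice (8.24%). For ISP with Veh 1 was higher (7.87%). The median log2 fold change of these partners was -0.09 in ISP mice and -0.16 in Veh mice relative to control. Of the electrically silent Kv subunits, which modify Kv2 channels, 3 of 9 tested fell in ISP mice and 1 of 9 in Veh mice. Kcnv1 was the one that fell in Veh mice, with 60.9 to 84.7 CPM in ISP mice, 76.3 to 96.6 CPM in Veh mice and 105 to 133 CPM in control mice, at log2 fold changes of -0.60 (standard error 0.11, adjusted p = 0.0245) in ISP mice and -0.39 (standard error 0.09, adjusted p = 0.0849) in Veh mice. Of the calcium- and sodium-activated potassium channels 2 of 10 tested fell in each stroke group. They were Kcnma1, the BK channel that ends spikes, at -0.59 in ISP mice and -0.64 in Veh mice (adjusted p = 0.0273 and 0.0534), and Kcnt2, a sodium-activated channel, at -0.45 and -0.51 (adjusted p = 0.0371 and 0.0732).

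The list of inward rectifier and leak potassium channels moved in both directions. Of 20 tested genes 2 rose and 3 fell in ISP mice (6.74% and 3.42% of all genes). In Veh mice 1 rose and 1 fell (1.03% and 1.2%). Kcnj10, the potassium channel of astrocytes, was at 327 to 401 CPM in ISP mice, 259 to 336.5 CPM in Veh mice and 222 to 242 CPM in control mice, a rise of 0.61 in ISP mice (standard error 0.08, adjusted p = 0.0162) and 0.33 in Veh mice (standard error 0.08, adjusted p = 0.0945) on the log2 scale. The leak channel gene Kcnk12 fell by 0.57 in ISP mice (adjusted p = 0.0275) and by 0.38 in Veh mice (adjusted p = 0.0963). Of 20 tested partners of potassium and HCN channels 1 rose and 1 fell in ISP mice (6.74% and 3.42% of all genes). In Veh mice 1 rose (1.03%). The gene that rose in both was Kcne1l, of the KCNE family of small potassium channel subunits, at 3.67 to 12.9 CPM in ISP mice, 2.85 to 6.46 CPM in Veh mice and 0.852 to 1.87 CPM in control mice, with log2 fold changes of 2.84 (adjusted p = 0.0199) and 1.76 (adjusted p = 0.0741). Of 10 tested partners of calcium channels 1 rose in ISP mice, where 6.74% of all genes rose. It was Cacng5, a transmembrane AMPA receptor regulatory protein, at 1.30 (adjusted p = 0.0383). In Veh mice 0 of these partners were called (1 higher at an unadjusted p under 0.05, against 8.1% of all genes).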

How the data were processed

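RNA-seq libraries were made from poly(A) RNA of cortex punches of 12 mice, without strand marking. The authors mapped reads to mm10 with HISAT2 and made gene counts with HTSeq in its default mode, and their tests were done in DESeq2. Tool versions were not given in the sources used here. This counting mode leaves out reads that it cannot assign to a single gene. How it treated reads in bases shared with a gene on the other strand was not examined. The deposited table holds raw counts of 25238 genes, and the 12 columns were matched to samples by name. Symbols were matched to GENCODE M21 (24373 directly, 338 by RefSeq synonym) for exon length, GC content and position. The sequences are from RefSeq.

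ISP was compared with Veh, and each of these with control, in separate fits of 8 libraries by edgeR 4.0.16 under R 4.3.3 (TMM factors after filterByExpr; glmQLFit, then glmQLFTest). Adjustment was by Benjamini-Hochberg over all tested genes, and calls were made at an adjusted p under 0.1. Printed CPM were TMM-normalized over all 12 libraries. The fit was also run on simulated counts with known changes. This was a check of the code only, and its outcome is not used here as support for any result. Alternatives were DESeq2 1.42.0 and limma 3.58.1 (voom with quality weights), both on the filtered genes, other scalings, filters and thresholds, trends in GC content and exon length (loess, span 0.3), marker covariates and leaving out libraries. Named members were the 10 with the smallest p among those called against control in each comparison, the 6 with the smallest p for ISP with Veh, and the one with the highest CPM per kilobase in each family, and others are given by value where a family is described. Some members are not reported here by name or drawn in the plots, though all counts and fits over the members include them. The members, lists and tests were chosen with earlier results of these data known. The 18 pairs of libraries within a group gave a chi-square per degree of freedom of 11.1 to 50.9, above sampling noise, and all 12 were kept as separate samples. No pairing of mice and no sequencing batch is stated.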

Additional observations from a re-analysis of the deposited data

Results flagged for a closer look

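In 1 of 60 sets of 4 mice examined, 20 named members in each of the 3 groups, 1 mouse lay far from the other 3 of its group, where chance gives about 1 in 20 such sets. Kcnh4 was at 12.9 CPM in control 36, against 24.3 to 25.4 CPM in the other control mice.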

How the results depend on the processing

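No paired analysis was possible because the groups share no replicate numbers. Of the 26 results for named members, 0 changed direction in any alternative, and Cacna1a, Kcnb2, Kcnh5, Kcnh7 and Cacna2d1 stayed called for ISP with control in each of the 8 fits that left out 1 library. For ISP with Veh, DESeq2 called 1 member higher and 4 lower in place of 0, and edgeR called 1 lower, Kcnh4 at -0.93, without ISP 18 and Veh 6, chosen after seeing the data. For Veh with control, 10 members were lower in the main setting, against 4 with all 12 libraries in 1 fit, 1 at an adjusted p of 0.05, 3 with a log2 fold change beyond 0.5 as well, 2 with GC content and exon length trends removed, and 0 to 9 with 1 library left out. For ISP with control, 18 were lower, against 8 at an adjusted p of 0.05, 5 with a log2 fold change beyond 0.5, 8 after removal of trends in GC content and length, 0 with the pan-neuronal covariate, 6 with the upper-layer covariate (chosen after seeing the data), 2 without ISP 14 and ISP 18, and 5 to 27 with 1 library left out (5 without ISP 14, 27 without ISP 16). The stricter thresholds on adjusted p and log2 fold change can only lower such counts, for all genes as for members. For the trend and covariate fits the shares of all genes called are given above. They are not given for the fit of all 12 libraries or the fit without ISP 18 and Veh 6. The counts of those fits are therefore not set against all genes. The median of -0.26 for ISP with control became -0.16 with the pan-neuronal covariate and -0.15 without ISP 14 and ISP 18. In each replicated comparison 4 mice limit what can be detected, and members under about 1 CPM had too few counts for a firm value. The cause of these changes was not tested beyond the construction of each setting.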

Other observations

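Some members whose products are known from other tissues were present at low counts. Kcna10 had at most 22 counts in a library and Kcna7 at most 8. Scn10a, of sensory neurons, was at 0.670, 0.411, 0.724 and 0.509 CPM in ISP mice, 0.475, 0.522, 0.363 and 0.236 CPM in Veh mice and 0.377, 0.0858, 0 and 0.189 CPM in control mice. Every ISP mouse was above every control mouse, but the gene did not pass the filter for that comparison and has no test there. Scn11a was at 0.0515, 0.164, 0.289 and 0.237 CPM in ISP mice, 0.178, 0, 0.181 and 0.0943 CPM in Veh mice and 0, 0, 0 and 0.0473 CPM in control mice, with 7 counts in the highest library, so that these values rest on very few reads.

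Kcne2, a small potassium channel subunit known from the choroid plexus, ran from 0 to 4.85 CPM in ISP mice and from 0 to 8.59 CPM in Veh mice. In control mice it ran from 0 to 0.129 CPM. The means were 1.24 ± 2.41 CPM in ISP mice and 2.24 ± 4.24 CPM in Veh mice (SD). Nearly all of the signal in each stroke group thus came from a single library. Kcne2 did not pass the filter in any comparison and has no test.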
